A study of Mus musculus with 16 samples.

Results

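The 10 genes described here lie on the mitochondrial genome and encode core subunits of the respiratory chain and of ATP synthase: mt-Nd1, mt-Nd2, mt-Nd4, mt-Nd5, mt-Nd6, mt-Cytb, mt-Co1, mt-Co2, mt-Co3 and mt-Atp6. They were chosen by name, and all 10 were among the 18424 genes listed. RNA was sequenced from the medial prefrontal cortex of 16 male C57BL/6N mice at postnatal day 120, 4 in each of 4 groups. WT-Veh and WT-Flx mice were wild type, and HT-Veh and HT-Flx mice carried 1 CRISPR/Cas9 allele of Arid1b, mutated in exon 5 so that the protein is truncated, beside a normal copy. ARID1B belongs to SWI/SNF complexes, which reposition nucleosomes. Pups of the Flx groups took in fluoxetine, which blocks serotonin reuptake, by suckling from dams that drank it at 0.1 mg/ml in water with 0.2% saccharin from postnatal day 3 to 21. Pups of the Veh groups were nursed by dams that drank water with saccharin alone. The drug ended at weaning, and all 4 groups had been exposed to saccharin through the dam.

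The mitochondrial genome is a small circle that is held in many copies by each cell. Both of its strands are transcribed as long precursors, and tRNAs that lie between the genes mark where the precursors are cut into separate mRNAs. The proteins join many subunits made from nuclear genes, so that each respiratory complex needs both genomes. Complex I holds the Nd proteins, complex III holds cytochrome b, complex IV holds the Co proteins, and mt-Atp6 encodes part of the proton channel of ATP synthase. Nuclear chromosomes also carry old insertions of mitochondrial DNA, and a sequencing read from a stretch that is identical in both places cannot be assigned from its sequence alone. In bulk tissue, fewer cells of a type and less RNA per cell cannot be told apart, and neither can fewer mitochondria and less RNA per mitochondrion.

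In the GENCODE M21 annotation of GRCm38, the mitochondrial genome held 13 protein-coding genes, all of them listed. The 10 genes ran from mt-Nd1 (chromosome M, 2751 to 3707) to mt-Cytb (14145 to 15288). Between them lie mt-Nd2 (3914 to 4951), mt-Co1 (5328 to 6872), mt-Co2 (7013 to 7696), mt-Atp6 (7927 to 8607), mt-Co3 (8607 to 9390) and mt-Nd4 (10167 to 11544), followed by mt-Nd5 and mt-Nd6. Each is 1 exon without introns. Of the 10, only mt-Nd6 (13552 to 14070) is annotated on the minus strand, and it shares its last 14 bases with the end of mt-Nd5 (11742 to 13565) on the plus strand. Libraries were made with a stranded kit, but the strand setting of the quantification is not given in the sources used here. The plus-strand genes overlap as well: mt-Atp6 begins within the last 43 bases of mt-Atp8, mt-Co3 begins on the last base of mt-Atp6, and mt-Nd4 begins within the last 7 bases of mt-Nd4l.

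Several of these genes had a nuclear copy that was also quantified. A pseudogene block on chromosome 1 (minus strand) holds Gm28439, Gm28437, Gm10925, Gm28661 and Gm29216 between 24611535 and 24616197. Gm28437 (24613189 to 24613971) is identical to bases 1 to 783 of the 784 bases of mt-Co3. Gm28661 (24614885 to 24615565) is identical to bases 1 to 681 of the 684 of mt-Co2, and Gm10925 (24613974 to 24614651) to bases 1 to 678 of the 681 of mt-Atp6. Over their whole length these copies therefore differ from the mitochondrial gene only in lacking the stop codon. The last 30 bases of each gene and copy are shown because no other stretch separates them, 5′ to 3′ from the GENCODE transcripts of GRCm38, with the bases that the copy lacks in capitals. The stop codon of mt-Co3 is a single T, which the poly(A) tail completes, as is also the case at the end of mt-Nd4 and mt-Cytb.
mt-Co3: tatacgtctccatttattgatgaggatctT
Gm28437: ctatacgtctccatttattgatgaggatct
mt-Co2: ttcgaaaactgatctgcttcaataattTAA
Gm28661: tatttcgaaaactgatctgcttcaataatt
mt-Atp6: gtaagcctatatctacatgataatacaTAA
Gm10925: ctagtaagcctatatctacatgataataca

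mt-Co1 was separable from its chromosome 1 copy at more positions. Gm29216 (24615706 to 24616197) covers bases 1054 to 1545 of mt-Co1, with 6 mismatches and 98.8% identity. Counted from the first base of mt-Co1, they are T1056A, C1057T, A1059G, A1060G, C1062A and A1066T, with the base of mt-Co1 first. All 6 lie within the first 30 bases of the shared stretch, shown here with the differing bases in capitals.
mt-Co1: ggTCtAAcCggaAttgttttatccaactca
Gm29216: ggATtGGcAggaTttgttttatccaactca
Gm28439 (24611535 to 24612410) is identical to bases 1 to 876 of the 1378 of mt-Nd4. Of all 31-base words of a gene, the share also found on the same strand of any annotated nuclear transcript was 100% for mt-Co2, 99.9% for mt-Co3, 99.5% for mt-Atp6, 63.9% for mt-Co1 and 62.8% for mt-Nd4. It was 16.8% for mt-Nd5, 13.5% for mt-Nd2, 7.36% for mt-Nd6, 6.55% for mt-Cytb and 0% for mt-Nd1. mt-Nd1 was thus the 1 gene of 10 that shared no such word with a nuclear transcript of this annotation. On chromosome 2, Gm13340 covers bases 1 to 1545 of mt-Co1 at 97.6% identity. It shares 45.2% of the words of mt-Co1, against 29.6% for Gm29216. Gm13341, also on chromosome 2, shares 47.1% of the words of mt-Co2. These copies were listed at no more than 27.0 (Gm13340) and 37.1 (Gm13341) normalized counts.

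The libraries differed in tissue markers, most widely in summed olfactory bulb markers, with a coefficient of variation of 146% over the 16 mice. Sums for choroid plexus varied by 51.8%, for striatum by 40.9% and for red blood cells by 29.8%. WT-Veh replicate 1 had the lowest cortical neuron sum (112639) and the highest red blood cell sum (7605) of all mice. HT-Veh replicate 4 had the highest striatal sum (10219). Marker lists covered cortical neurons, olfactory bulb, striatum, astrocytes, oligodendrocytes, microglia, endothelium, choroid plexus and red blood cells. No gene of these lists passed the adjusted threshold in any of the 6 limma comparisons given below. In HT-Flx versus WT-Flx, 7 of 8 olfactory bulb markers were tested, and all 7 were lower in HT-Flx, with a median log2 change of -2.64. Of these, 6 had an unadjusted limma p under 0.05, against 10.4% of all genes. Over both treatments 3 of 8 olfactory bulb markers and 3 of 5 microglia markers did, against 11.9% of all genes. Cortical neuron markers were present in every library, with Slc17a7 between 32162 and 43463 normalized counts. Olfactory bulb markers, which mark tissue that lies next to the frontal cortex, were summarised as the mean log2(value + 1) of 8 genes. This score was 9.88 in WT-Veh replicate 1, 9.52, 8.28 and 7.47 in WT-Flx replicates 4, 2 and 1, and 8.22 in HT-Veh replicate 4, against 4.35 to 5.46 in the other 11 libraries. Arid1b itself ran from 1787 to 2831 in WT-Veh and from 1902 to 2433 in WT-Flx, against 1619 to 2005 in HT-Veh and 1545 to 1671 in HT-Flx. Column totals ran from 26718800 to 29902400 after the authors' normalization, from which sequencing depth cannot be read.

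The 10 genes together held between 8.04% and 10.9% of all normalized counts in each mouse. Their summed share of the column total was 8.16%, 9.48%, 9.33% and 8.65% in WT-Veh replicates 1 to 4, with a mean of 8.91% ± 0.616 (SD, n = 4). In WT-Flx it was 8.51%, 10.3%, 10.8% and 10.2%, with a mean of 9.97% ± 1.01. The HT-Veh shares of 9.19%, 9.15%, 10.7% and 8.76% gave 9.45% ± 0.843, and the HT-Flx shares of 10.9%, 8.04%, 9.75% and 8.50% gave 9.30% ± 1.29. The groups overlapped, and the highest and the lowest share of all 16 mice, in replicates 1 and 2, were both found in HT-Flx. With 6 nuclear copies of the chromosome 1 block added, the 5 described above and Gm28438, a copy of mt-Nd3, the shares ran from 10.4% to 13.9%. No test was made on this sum, which is a description.

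**Figure D1:**
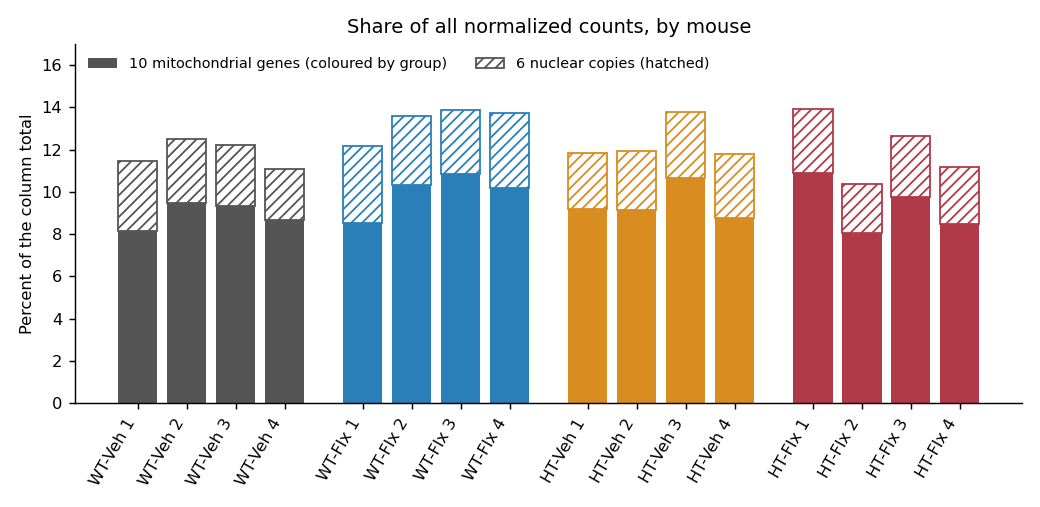
Bars give, for each of the 16 mice, the percent of the column total held by the 10 mitochondrial genes (filled, coloured by group) and by 6 nuclear copies (hatched, stacked on top). The filled bars end between 8.04% and 10.9%, and the groups overlap.

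Levels between genes were compared per kilobase. The libraries were poly(A)-selected, and how well each transcript was captured is not known, so these levels may not be true abundances. mt-Co1, the catalytic core of complex IV, was the highest in all 16 mice at 668937 ± 75622 normalized counts per kilobase (SD, n = 16). mt-Cytb of complex III followed at 310265 ± 35689 and mt-Nd1 of complex I at 297030 ± 34947. These 2 differed by less than the spread between mice, although mt-Cytb was above mt-Nd1 in 14 of 16 mice. Further complex I subunits came next, mt-Nd4 at 271040 ± 37839 and mt-Nd2 at 197538 ± 23474, and mt-Nd4 was above mt-Nd2 in all 16 mice.

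The order below mt-Nd2 was less settled. mt-Co2 (147627 ± 36113 per kilobase) and mt-Nd5 (138996 ± 28250) could not be ordered, since mt-Co2 was above mt-Nd5 in 7 of 16 mice. mt-Co3 (75770 ± 34009) was above mt-Atp6 (64250 ± 18100) in 10 of 16. The lowest gene in every mouse was mt-Nd6, at 5883 ± 828 per kilobase, below the lowest mt-Atp6 value of 45164. Adding the identical copy moved 3 genes up this order: per kilobase of the mitochondrial gene, mt-Atp6 with Gm10925 reached 508346, mt-Co2 with Gm28661 489238 and mt-Co3 with Gm28437 389792, all above the mean of mt-Cytb.

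**Figure D2:**
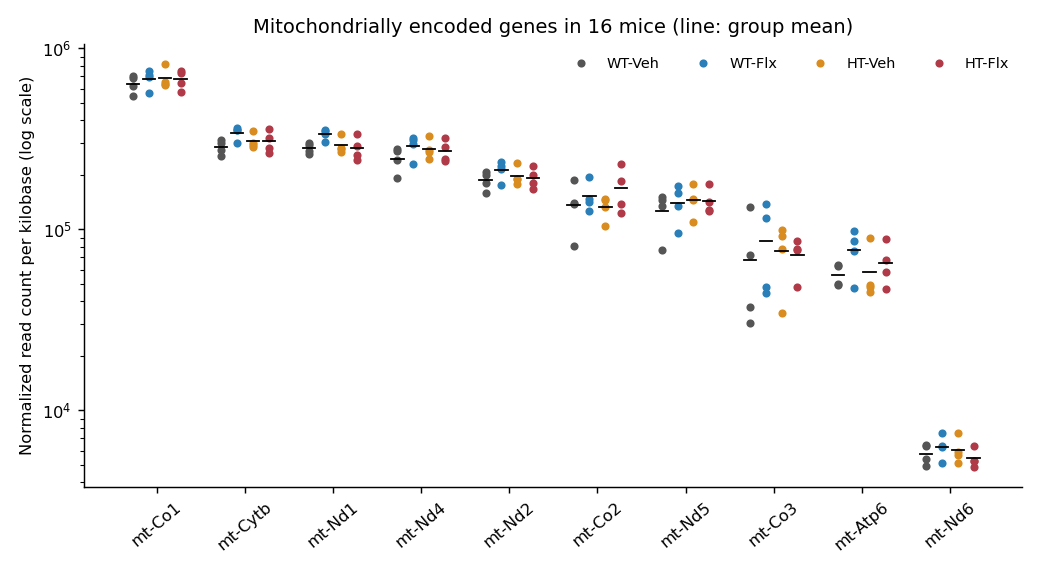
Points give the normalized read count per kilobase of each gene in each of the 16 mice, coloured by group, on a log axis, with a short line at each group mean. mt-Co1 stands above and mt-Nd6 below all others, and mt-Co3 has the widest scatter over the 16 mice.

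The genes with an identical copy were also the ones that scattered most between mice. The coefficient of variation over the 16 mice was 44.9% for mt-Co3, 28.2% for mt-Atp6 and 24.5% for mt-Co2, then 20.3% for mt-Nd5. It lay between 11.3% and 14.1% for mt-Co1, mt-Cytb, mt-Nd1, mt-Nd2, mt-Nd4 and mt-Nd6. For comparison, the 2 mitochondrial rRNAs, which are not members of this set, varied by 10.3% (mt-Rnr1) and 9.10% (mt-Rnr2).

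mt-Co3, a core subunit of complex IV, was at 56714, 29112, 23929 and 103785 normalized counts in WT-Veh replicates 1 to 4. It was at 90295, 35087, 108225 and 37812 in WT-Flx, at 72486, 61280, 27189 and 78121 in HT-Veh and at 67673, 61085, 60197 and 37472 in HT-Flx. Replicates of 1 group thus differed up to 4.34-fold in WT-Veh, while all 4 groups overlapped. Its copy Gm28437 was given more counts than mt-Co3 in every mouse, between 187102 and 295181. The pair moved in opposite directions: mice with high mt-Co3 had low Gm28437, with Pearson's r of -0.79 on normalized counts over the 16 mice, and mt-Co3 held from 8.35% to 35.7% of the summed pair. This correlation is given as a description, since both values come from the same libraries and share their reads. Summed with its copy, mt-Co3 ranged from 259662 to 332066, and the coefficient of variation fell from 44.9% to 6.31%. Gm28437 alone varied by 12.9%.

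The coefficient of variation was also lower for the sums of mt-Co2 and mt-Atp6 with their copies. mt-Co2, which carries the first electron acceptor of complex IV, was at 127939, 95854, 94372 and 55259 in WT-Veh and at 86576, 100146, 96966 and 133372 in WT-Flx. It was at 101123, 91409, 99652 and 71494 in HT-Veh and at 156546, 94355, 126024 and 84550 in HT-Flx. The highest value of all was in HT-Flx replicate 1 and the lowest in WT-Veh replicate 4, and the groups overlapped. Gm28661 held 183103 to 293635, mt-Co2 held 19.6% to 42.9% of the pair, and the coefficient of variation was 10.1% for the sum. Gm28661 alone varied by 12.7%. For this pair r was -0.25.

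mt-Atp6 was at 33814, 42808, 33679 and 43139 in WT-Veh and at 32343, 58785, 66933 and 51854 in WT-Flx. It was at 33779, 30757, 61313 and 32789 in HT-Veh and at 59919, 46356, 39776 and 32021 in HT-Flx. All groups reached down to similar low values, and WT-Flx held 3 of its 4 mice above the highest WT-Veh mouse. Gm10925 was at 247770 to 346261, mt-Atp6 held 8.74% to 16.7% of the pair, and here both moved together (r 0.51). The sum varied by 11.4% and Gm10925 alone by 10.4%.

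**Figure D3:**
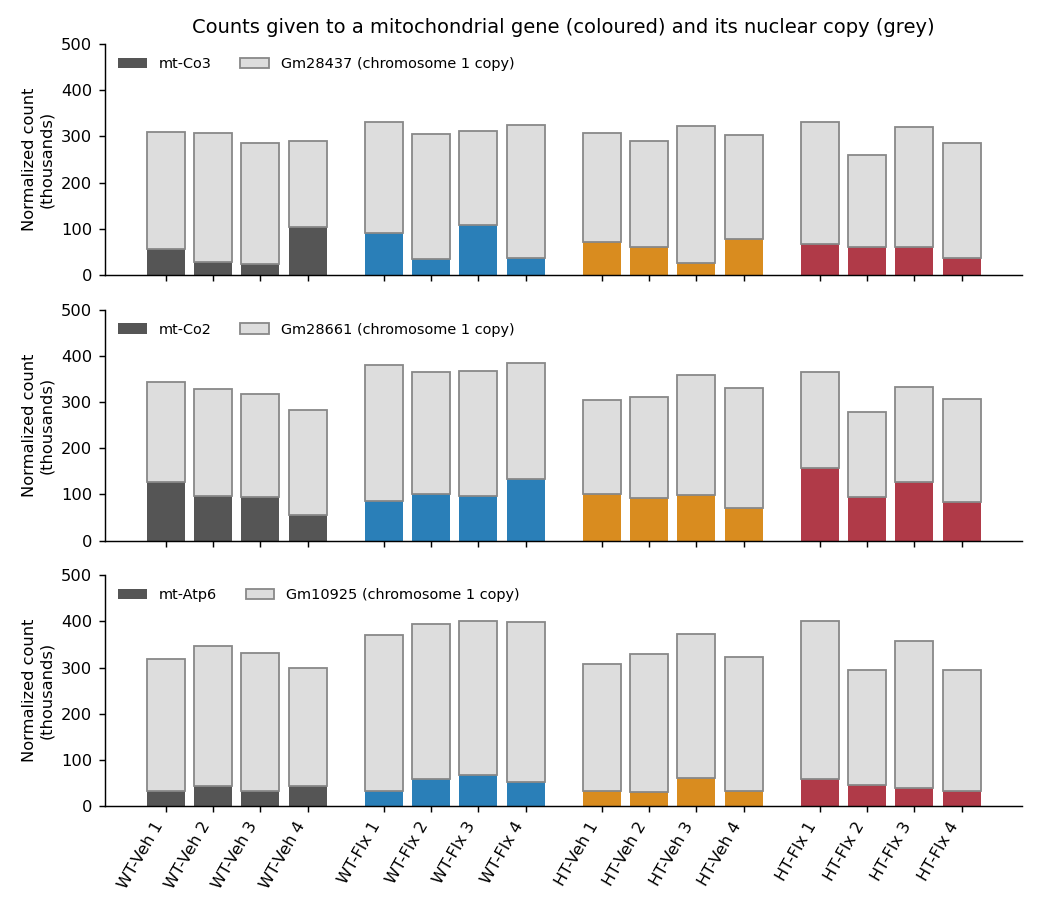
Stacked bars give, for each mouse, the normalized counts of mt-Co3, mt-Co2 and mt-Atp6 (coloured by group) and of the identical chromosome 1 copy (grey). The height of the mt-Co3 pair stays between 259662 and 332066 while the coloured part changes from 23929 to 108225.

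The other copies held fewer counts. Gm29216 was at 18225 to 135480, against 837742 to 1264500 for mt-Co1, so that mt-Co1 held 86.6% to 98.1% of that pair. Gm29216 was highest in WT-Flx replicate 1 (135480), WT-Veh replicate 1 (101956) and WT-Flx replicate 4 (96500), which are among the 5 libraries with a high olfactory bulb score. In the other 13 mice it was at most 57480. Gm28439, although identical to the first part of mt-Nd4, was listed at 0 in 14 of 16 mice.

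The 7 genes without a copy identical over their whole length moved together from mouse to mouse. On log2 values, the 21 correlations among mt-Nd1, mt-Nd2, mt-Nd4, mt-Nd5, mt-Nd6, mt-Cytb and mt-Co1 over the 16 mice ran from 0.55 to 0.96, with a median of 0.85. mt-Nd6 of the other strand was among them. Of the genes with an identical copy, mt-Atp6 moved with them, with a median correlation of 0.71 to the other 9. The 9 correlations of mt-Co3 with the other genes ran from -0.37 to -0.064, and those of mt-Co2 from -0.25 to 0.46. With the summed level of the 7 genes, mt-Co3 correlated at -0.30 alone and at 0.43 after its copy was added, and mt-Co2 at 0.34 and 0.47. For mt-Atp6 it was 0.73 alone and 0.74 with the copy, so that the sum changed little. These are descriptions over points that share libraries and normalization.

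To ask whether genotype alone altered these genes, HT-Veh was compared with WT-Veh. None of the 10 genes passed the test, which 0.0178% of all genes tested did (limma on log2(value + 1), adjusted p under 0.05, 3 of 16832 genes). None of the 10 had an unadjusted p under 0.05 either, here or in the other 5 comparisons below, and a p that misses the threshold does not show that the groups were alike. The changes were positive for 9 of 10, with a median of 0.09 on the log2 scale, against 0.0062 over all genes. Without WT-Veh replicate 1, the mouse with the highest olfactory bulb score, 8 were positive and the median was 0.025. Without HT-Veh replicate 3, whose score was low, 6 were positive and the median was 0.0078. No gene had groups that did not overlap, which held for 3.84% of all genes.

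mt-Co1 was at 837742, 1057980, 1084750 and 952646 in WT-Veh and at 987628, 1006190, 1264500 and 967977 in HT-Veh. The lowest mouse was WT-Veh replicate 1 and the highest HT-Veh replicate 3, and the other mice lay close together. Its log2 change was 0.10 (SE 0.17, 95% interval -0.29 to 0.49, limma adjusted p 0.945). mt-Nd1 was at 0.04 (SE 0.12, 95% interval -0.23 to 0.31), an interval that spans from 14.5% lower to 23.7% higher in HT-Veh.

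The least certain change was that of mt-Co3, at 0.30 (SE 0.46, 95% interval -0.73 to 1.33). Summed with its copy, it was 0.034 (SE 0.10, 95% interval -0.19 to 0.26, limma adjusted p 0.969). mt-Nd5 was at 0.23 (SE 0.23) and mt-Atp6 at -0.0025 (SE 0.20). The mt-Atp6 change was 0.038 (SE 0.11) with its copy added.

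Nuclear-encoded subunits of the same complexes were mostly lower in HT-Veh, without passing the test. Of 71 such genes (36 of complex I, 9 of complex III, 11 of complex IV and 15 of ATP synthase), 70 had a negative change and 1 a positive one, with a median of -0.16, but 0 passed the adjusted threshold in limma, with 9 at an unadjusted p under 0.05, as had 4.88% of all genes. The smallest p within its list belonged to Ndufa1 of complex I (log2 change -0.34, SE 0.10), Uqcrq of complex III (-0.26, SE 0.094), Cox7b of complex IV (-0.22, SE 0.085) and Atp5e of ATP synthase (-0.36, SE 0.14), with limma adjusted p from 0.899 to 0.922. These values changed with 1 mouse of high olfactory bulb score. In WT-Veh replicate 1 the 71 genes held 0.885% of the column total, against 0.630% to 0.659% in the other WT-Veh mice and 0.575% to 0.648% in HT-Veh. Without that mouse 62 of 71 were negative and the median was -0.061. Leaving out the 5 libraries with a high score gave 64 negative and a median of -0.067. Adjusting for the score instead left 69 of 71 negative, with a median of -0.14. In that limma fit 28 of the 71 had an unadjusted p under 0.05, against 1723 of all genes, and 0 passed the adjusted threshold. The ratio of the 10 mitochondrial genes to the 71 nuclear genes was lowest of all in WT-Veh replicate 1, at 9.22, while the other WT-Veh mice lay between 13.1 and 15.1 and the HT-Veh mice between 13.5 and 18.6.

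The effect of early fluoxetine in mutant mice was examined in HT-Flx versus HT-Veh. None of the 10 genes passed, and 0% of all genes did (0 of 16814, limma adjusted p, with 516 at an unadjusted p under 0.05). The median change of the 10 was -0.019, against 0.0030 over all genes, with 2 positive and 8 negative changes. This median had no stable sign: it was 0.047 without HT-Veh replicate 3, 0.031 without HT-Flx replicate 2 and 0.017 without HT-Flx replicate 4, and -0.11 without HT-Flx replicate 1 and -0.072 after adjustment for the olfactory bulb score. mt-Co1 was at 1162270, 882275, 1128180 and 993447 in HT-Flx, within and below the HT-Veh range, with a log2 change of -0.02 (SE 0.15, 95% interval -0.35 to 0.31). mt-Nd1 was at -0.06 (SE 0.13).

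The ends of the range were mt-Nd6 at -0.15 (SE 0.11) and mt-Co2 at 0.31 (SE 0.18, 95% interval -0.08 to 0.71, limma adjusted p 1.00). mt-Nd6 was at 3041, 2665, 3874 and 2960 in HT-Veh and at 3305, 2538, 2712 and 2710 in HT-Flx, and its groups overlapped. The mt-Co2 change did not hold for the sum: with Gm28661 and Gm13341 added it was -0.027 (SE 0.11, 95% interval -0.27 to 0.22). No gene had groups that did not overlap, against 1.99% of all genes. Of the 71 nuclear subunits 56 were negative, with a median of -0.044, and 0 passed in limma, with 1 at an unadjusted p under 0.05.

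In wild types, the same drug comparison was made. All 10 genes were higher on average in WT-Flx than in WT-Veh, with a median log2 change of 0.22 against -0.00091 over all genes, yet none passed the adjusted threshold, which 0% of all genes passed (0 of 16833 in limma, 707 at an unadjusted p under 0.05). mt-Nd1 was at 259661, 288764, 280996 and 251143 in WT-Veh and at 289038, 333294, 338415 and 320399 in WT-Flx. Every WT-Flx mouse was above every WT-Veh mouse, although WT-Flx replicate 1 was barely above WT-Veh replicate 2. It was the 1 gene of 10 whose groups did not overlap, as for 2.89% of all genes. Its log2 change was 0.25 (SE 0.12, 95% interval -0.02 to 0.51), with an exact permutation p of 0.0286, the smallest that 4 against 4 mice allow, and a limma adjusted p of 1.00 over all genes. Of the 50 exact permutation tests made on the 10 genes over the pairwise comparisons and the comparison of genotypes over both treatments, it was the 1 with a p under 0.05. Single mice moved the median of the 10: it was 0.16 without WT-Flx replicate 3 and 0.29 without WT-Flx replicate 1. Without WT-Veh replicate 1 it was 0.17, and 9 of the 10 were positive. After adjustment for the olfactory bulb score the median of the 10 was 0.28, and 0 of the 10 passed the adjusted threshold. In that limma fit 4 of the 10 had an unadjusted p under 0.05, against 999 of the 16833 genes tested. Since 7 of the 10 moved together from mouse to mouse, such counts are not independent observations. Without the 5 libraries with a high score, a fit that rests on 1 WT-Flx mouse, the median was 0.29.

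Other genes had changes of similar size in wild types with wider errors. mt-Cytb was at 292032, 358558, 344854 and 313802 in WT-Veh and at 341382, 406747, 413388 and 403080 in WT-Flx, a change of 0.26 (SE 0.13, exact permutation p 0.0857). Only WT-Flx replicate 1 lay within the WT-Veh range. The extremes were mt-Co3 at 0.42 (SE 0.50, 95% interval -0.69 to 1.52) and mt-Co1 at 0.10 (SE 0.17, 95% interval -0.27 to 0.47). mt-Nd5 was at 0.16 (SE 0.25).

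For 2 further genes the sum with the copy did not overlap between these groups, and neither did the copy alone. Gm10925 alone ran from 256914 to 303905 in WT-Veh and from 334582 to 346261 in WT-Flx. Gm28661 alone ran from 216001 to 232354 in WT-Veh and from 251791 to 293635 in WT-Flx. Groups did not overlap for 2.89% of all genes. mt-Atp6 was at 0.41 (SE 0.21) alone and at 0.27 (SE 0.11, 95% interval 0.026 to 0.52) with Gm10925, where WT-Veh ran from 300052 to 346713 and WT-Flx from 369960 to 401515. The sum of mt-Co2 and Gm28661 ran from 282026 to 343940 in WT-Veh and from 365843 to 385163 in WT-Flx. Neither sum passed in limma over all genes (adjusted p 1.00), and the sums were examined after the values had been seen. The mt-Co3 sum was at 0.09 (SE 0.11), and its groups overlapped. Of the 71 nuclear subunits 16 were positive and 55 negative, with a median of -0.10. In limma 0 of them passed, with 8 at an unadjusted p under 0.05, against 4.20% of all genes. Among these 8 were Atp5e (-0.84, SE 0.18), Ndufa4 (-0.47, SE 0.13), Ndufa2 (-0.48, SE 0.17) and Uqcr10 (-0.41, SE 0.16), and with a positive change Ndufs1 (0.21, SE 0.083). Without WT-Veh replicate 1, the median of the 71 was -0.011, and after adjustment for the olfactory bulb score it was -0.21. Without the 5 libraries with a high score, which leaves 1 WT-Flx mouse, it was -0.13.

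Genotype was next compared among mice exposed to the drug. Between HT-Flx and WT-Flx none of the 10 genes passed, against 0.0417% of all genes (7 of 16788, limma). Changes were negative for 8 of 10, with a median of -0.13 against 0.0081 over all genes. Single mice moved this median: it was -0.062 without HT-Flx replicate 4, -0.066 without WT-Flx replicate 3, -0.21 without WT-Flx replicate 1 and -0.22 without HT-Flx replicate 1. It was -0.21 after adjustment for the olfactory bulb score and -0.30 without the 5 libraries with the highest scores, which leaves 1 WT-Flx mouse. mt-Nd1 was at 321351, 231216, 275134 and 245246 in HT-Flx, and 3 of these 4 mice lay below every WT-Flx mouse. These are the same WT-Flx mice as in the drug comparison in wild types. Its change was -0.26 (SE 0.13, 95% interval -0.55 to 0.02, limma adjusted p 0.498, exact permutation p 0.0857). mt-Nd6 was at -0.21 (SE 0.12).

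mt-Co2 was the gene with the highest change, 0.12 (SE 0.19), and its sum with the copy was at -0.23 (SE 0.12, limma adjusted p 0.505). For this pair the sum did not overlap between the groups, at 277458 to 364584 in HT-Flx and 365843 to 385163 in WT-Flx. Neither did Gm28661 alone, at 183103 to 222569 in HT-Flx and 251791 to 293635 in WT-Flx. Gm29216, the copy of mt-Co1, did not overlap either, at 32109 to 51097 in HT-Flx and 55036 to 135480 in WT-Flx. Its sum with mt-Co1 did overlap. None of the 10 genes by themselves had groups that did not overlap, against 5.83% of all genes. The nuclear subunits were negative for 47 of 71, with a median of -0.055, and 0 passed in limma, with 7 at an unadjusted p under 0.05, as had 10.4% of all genes. Without the 5 libraries with a high olfactory bulb score their median was 0.052. The olfactory bulb score was above 7 in 3 of 4 WT-Flx mice and in none of the HT-Flx mice, and its part in these differences was not tested.

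**Figure D4:**
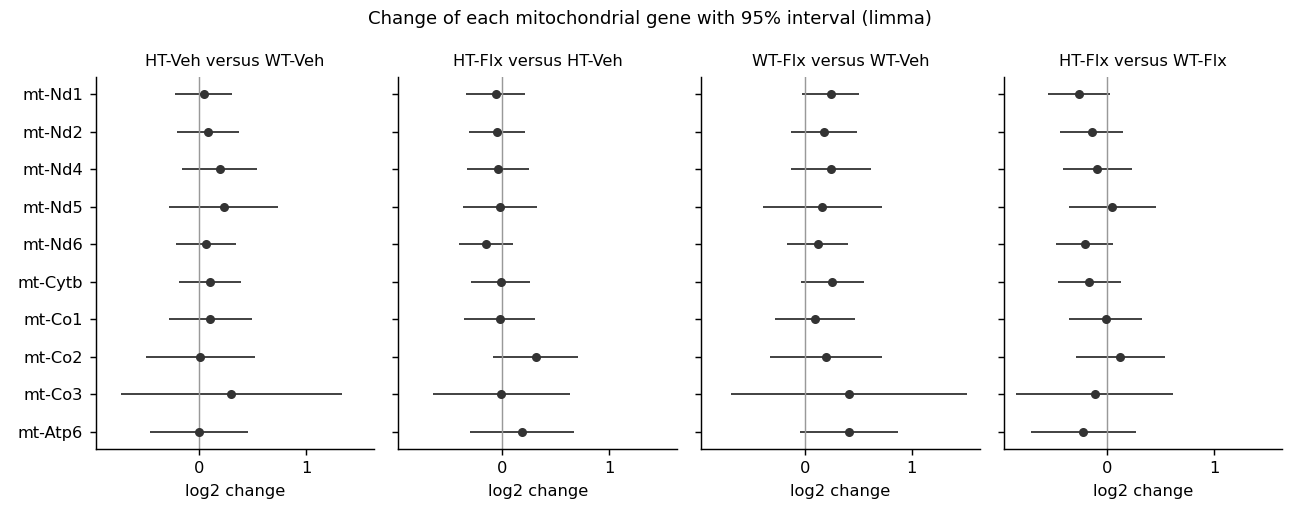
Points give the log2 change of each gene in the 4 pairwise comparisons, with lines for the 95% interval from limma. Every interval crosses 0, those of mt-Co3 are the widest, and all 10 points lie to the right of 0 in WT-Flx versus WT-Veh.

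An interaction term over all 16 mice asked whether the drug comparison came out differently in HT and WT mice. None of the 10 genes passed, as 0% of all genes did (0 of 17567 in limma, 754 at an unadjusted p under 0.05). The interaction was negative for 9 of 10, with a median of -0.25 against 0.0021 over all genes. The median was -0.15 without WT-Flx replicate 3, -0.16 without HT-Veh replicate 3 and -0.40 without the 5 libraries with a high olfactory bulb score. The interaction was -0.30 (SE 0.17, 95% interval -0.67 to 0.06) for mt-Nd1. The ends of the range were mt-Co3 at -0.42 (SE 0.64) and mt-Co2 at 0.11 (SE 0.32), which became -0.13 (SE 0.14) and -0.27 (SE 0.16) with their copies added.

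Over both treatments together, none of the 10 genes passed between HT and WT mice (limma with treatment as a covariate, against 0.0398% of all genes, 7 of 17567). Of the changes, 5 were positive and 5 negative, with a median of 0.0055, and without single mice the median lay between -0.041 and 0.046. The ends of the range were mt-Nd5 at 0.14 (SE 0.15, 95% interval -0.19 to 0.46) and mt-Atp6 at -0.11 (SE 0.17). mt-Nd1 was at -0.11 (SE 0.090), with a 95% interval from 18.9% lower to 5.49% higher in HT. The smallest exact permutation p of the 10, with genotype permuted within treatment, was 0.191. Among the 71 nuclear subunits 68 were negative, with a median of -0.11, and 0 passed in limma, with 18 at an unadjusted p under 0.05, as had 11.9% of all genes. Of these, Ndufa5 was at -0.33 (SE 0.085, limma adjusted p 0.243) and Ndufs1 at -0.23 (SE 0.061, adjusted p 0.244). Without the 5 libraries with a high olfactory bulb score, 47 of 71 were negative and the median was -0.035.

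Genes that copy and transcribe mitochondrial DNA, process its RNA or regulate mitochondrial biogenesis did not pass either. None of 12 genes for copying and transcription, 18 for RNA processing and stability and 5 regulators of biogenesis passed in any of the 6 limma comparisons. The largest number with an unadjusted p under 0.05 in a list and comparison was 1. Ssbp1, which binds single-stranded mitochondrial DNA, was at 0.28 on the log2 scale (SE 0.10, adjusted p 1.00 in limma) for the drug in wild types and at -0.34 (SE 0.12, adjusted p 0.387) for genotype under the drug. Over both treatments Ssbp1 was at -0.20 (SE 0.083) and Ptcd1, a mitochondrial RNA-binding protein, at 0.14 (SE 0.058), both with a limma adjusted p of 0.391. The mitochondrial transcription factor Tfam was at -0.16 (SE 0.20) in HT-Veh versus WT-Veh.

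The 10 genes were also set against the olfactory bulb score, after the lowest mt-Nd5 values had been seen in libraries with a high score. mt-Nd5, a proton-pumping subunit of complex I, was at 139675, 276316, 264582 and 244447 in WT-Veh and at 174612, 290085, 317683 and 244244 in WT-Flx. It was at 269510, 266662, 324512 and 200344 in HT-Veh and at 324546, 229895, 257359 and 232001 in HT-Flx. The 3 lowest mice, WT-Veh replicate 1, WT-Flx replicate 1 and HT-Veh replicate 4, were all among the 5 with a high score. The other high-score mice, WT-Flx replicates 2 and 4, were at 290085 and 244244, within the range of the low-score mice. In a limma fit of the score with the 4 groups as covariates, mt-Nd5 had a slope of -0.14 on the log2 scale per unit of score (SE 0.037, adjusted p 0.0211). It was the 1 gene of 10 that passed, a share close to the 11.5% of all genes that did (2015 of 17567). mt-Nd4 had a slope of -0.066 (SE 0.029, adjusted p 0.146) and mt-Nd1 of -0.021 (SE 0.025, adjusted p 0.623), and the difference between these slopes was not tested.

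The call for mt-Nd5 depended on single mice. Without WT-Veh replicate 1 the slope was -0.10 (adjusted p 0.529), and it also missed the threshold without WT-Flx replicate 3 (adjusted p 0.0611) or HT-Veh replicate 4 (0.0552). Since the scores fell into 5 high and 11 low libraries, the slope mainly compares these libraries. With the score as a term in the fit, 0 of the 10 genes passed in each of the 6 comparisons of groups.

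**Figure D5:**
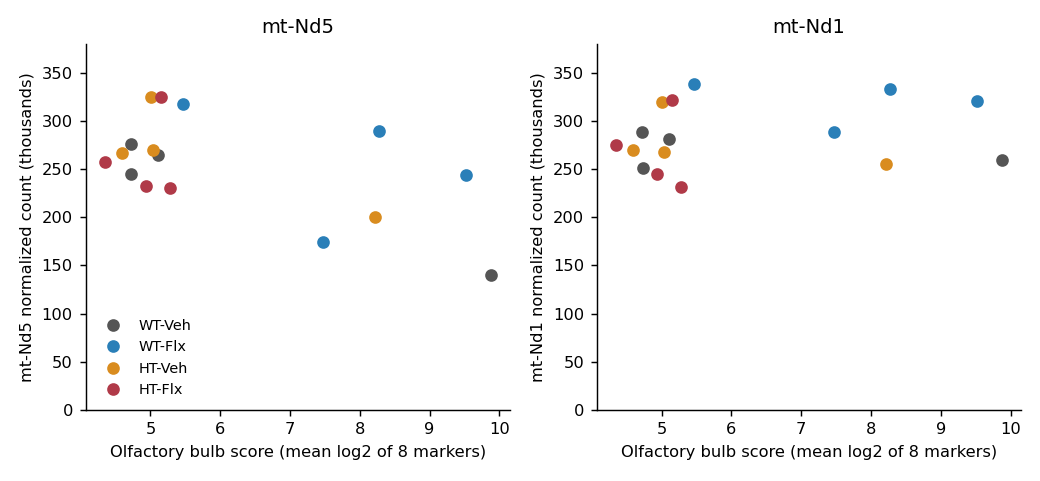
Points give the normalized count of mt-Nd5 (left) and mt-Nd1 (right) against the olfactory bulb score of each of the 16 mice, coloured by group. The 3 lowest mt-Nd5 values belong to mice with a score above 7, and the 3 lowest mt-Nd1 values belong to mice with a score below 6.

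The genes whose pattern over the mice was most like that of the 10 summed were sought among 12523 genes outside the mitochondrial genome and its copies with a mean of at least 100. By Pearson's r of log2 values over the 16 mice, these were Kctd12b (0.91), D3Ertd751e (0.91), Ahcyl1 (0.89), Supt20 (0.89) and Sh3glb1 (0.88). Their levels were far lower, from a mean of 142 for Kctd12b to 10569 for Ahcyl1. As the highest of many correlations over few mice, these values are a description.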

How the data were processed

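The authors prepared poly(A)-selected libraries with a stranded kit, read both ends of each fragment, estimated transcript abundance with Salmon (version 1.1.0, GC bias correction, GRCm38), and obtained gene values by tximport and DESeq2 (version 1.30.1). The deposited signal is a normalized read count per gene and mouse. No value above 0 was whole within 1e-06, so reads could not be recovered, the depth is unknown, and no counting interval is given. Comparisons used limma (version 3.58.1, R 4.3.3, lmFit and eBayes with trend) on log2(value + 1) over genes with at least 10 in at least 4 samples of the fit, two-sided, with Benjamini-Hochberg adjustment over all genes and a threshold of 0.05. A change on this scale understates that of low genes. Exact permutation tests used mean log2(value + 1), two-sided. The labels give 4 mice per group, numbered in the sample titles, and p-values measure the spread between these mice. The drug was given to dams, and the labels do not say whether mice of a group came from different litters. Mice of 1 litter would not be independent, which the p-values do not take into account.

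The 10 genes, the other lists and the tests were chosen with earlier results of these data known. The text names all 10 genes, the 5 genes most like their sum and, of the lists of mitochondrial function, genes past the threshold or among the 2 with the smallest p in a comparison. Marker lists of cell types and regions are given as counts and levels. Nuclear copies of single genes were sought as GENCODE M21 genes that share at least 5% of the 31-base words of a gene, which gave 12, of which 7 were listed. The share with copies used another list, of 6 pseudogenes on chromosome 1. The copies with their sums were chosen after their values were seen. In the limma fits the mt-Co2 sum also held Gm13341 and the mt-Co1 sum also held Gm13340, both of low counts. Whether replicate numbers pair mice was checked by correlating deviations from group means. The correlations ran from -0.23 to 0.31, and in no comparison were all 4 pairs above 0.1, so the numbers were not treated as pairs. The limma step was tested on simulated data. Alternatives were a pseudocount of 8, no filter, 3 rescalings, the olfactory bulb score as a covariate, quality weights, the replicate block, all 4 groups in the fit and leaving out each mouse. Sums with the copies, the fit without 5 libraries and the slope on the score were added after seeing the data.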

Additional observations from a re-analysis of the deposited data

Results flagged for a closer look

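Of 44 sets of 4 mice examined, 3 held a mouse that lay far from the other 3 relative to the range of its group, where chance gives about 1 in 20. In HT-Veh, replicate 3 was high for mt-Co1, at 1264500 normalized counts against 1006190 in the next mouse, and for mt-Atp6, at 61313 against 33779. The same mouse had the lowest mt-Co3 of its group. In WT-Flx, replicate 1 was low for mt-Cytb, at 341382 against 403080 in the next mouse, and it is 1 of the 5 libraries with a high olfactory bulb score.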

How the results depend on the processing

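In each of the 6 comparisons, 0 of the 10 genes passed the adjusted threshold under every alternative run, 20 settings for each pairwise comparison and 27 for the others. The smallest adjusted p over all alternatives was 0.111 (limma), for mt-Atp6 in WT-Flx versus WT-Veh without the 5 libraries with the highest olfactory bulb score (log2 change 0.76, SE 0.12), a fit that leaves 1 WT-Flx mouse, assumed to vary like the others. Over all genes the calls ranged from 0 to 19 in HT-Veh versus WT-Veh, from 0 to 12 in WT-Flx versus WT-Veh, from 0 to 23 in HT-Flx versus WT-Flx, from 0 to 2 for the interaction and from 1 to 23 over both treatments, and were 0 throughout in HT-Flx versus HT-Veh. Of the 60 changes of the 10 genes, 31 kept their direction in every alternative, and 84 of 1280 alternative values turned sign.

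Summing genes with their nuclear copies turned mt-Atp6 to 0.038 in HT-Veh versus WT-Veh, and mt-Co2 to -0.027 in HT-Flx versus HT-Veh, to -0.23 in HT-Flx versus WT-Flx and to -0.27 for the interaction. Quality weights gave 0.0033 for mt-Co1 in HT-Flx versus HT-Veh and -0.0056 for the mt-Co2 interaction. Without the 5 libraries, mt-Atp6 was 0.012 in HT-Veh versus WT-Veh, the mt-Co2 interaction -0.086 and mt-Nd5 over both treatments -0.020, and mt-Nd5 was -0.043 there with the score as a covariate. The cause was not tested.

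Leaving out each mouse gave, in HT-Veh versus WT-Veh, -0.0032 to 0.70 for mt-Co3, -0.23 to 0.099 for mt-Atp6 and -0.029 to 0.079 for mt-Nd1. It gave -0.076 to 0.069 for mt-Co1 and -0.15 to 0.0094 for mt-Nd1 in HT-Flx versus HT-Veh, -0.062 to 0.34 for mt-Nd5 in WT-Flx versus WT-Veh, -0.039 to 0.26 for mt-Co2 in HT-Flx versus WT-Flx and -0.061 to 0.34 for the mt-Co2 interaction. The slope of mt-Nd5 on the score ran from -0.16 to -0.10. With copies added, the mean share of the column total was 13.3% in WT-Flx and 11.8% in WT-Veh, against 12.0% in HT-Flx and 12.3% in HT-Veh.

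With the replicate number as a block, 0 of the 10 genes passed in each comparison, and over all genes the calls were 5 in HT-Flx versus WT-Flx, 8 over both treatments and 0 in the other 4. Since the numbers were not shown to pair mice, this fit was not read as a paired analysis. Depth is unknown, so how far it limits these values cannot be given.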

Other observations

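The 3 remaining protein-coding genes of the mitochondrial genome were not among the 10 and are given as values. mt-Atp8, which overlaps mt-Atp6, ran from 18736 to 37593 normalized counts over the 16 mice, with a coefficient of variation of 15.8%. mt-Nd4l ran from 16717 to 46589 (27.1%). mt-Nd3 ran from 805 to 3166 (37.5%) and held 3.85% to 13.2% of its sum with Gm28438, a further copy in the block on chromosome 1. The sum of that pair varied by 14.4%, less than mt-Nd3 alone, and most of the sum came from Gm28438.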
